A study of Saccharomyces cerevisiae with 12 samples.

Results

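The genes described here encode the subunits of the RNA polymerases of Saccharomyces cerevisiae. They were the rows of the deposited table whose common name was RPA, RPB, RPC or RPO followed by a number, or was RET1, and 32 of the 6216 features matched. All 32 passed the filter on low counts. By enzyme, 7 encode subunits found only in RNA polymerase I, 7 only in RNA polymerase II and 10 only in RNA polymerase III. A further 2 (RPC40 and RPC19) are shared by polymerases I and III, and 5 (RPB5, RPO26, RPB8, RPB10 and RPC10) are shared by all 3 nuclear enzymes. The naming pattern also takes RPO41, the mitochondrial RNA polymerase, a phage-type enzyme of a single chain that shares no subunit with the nuclear ones. With the shared subunits, the list holds 14 subunits of polymerase I, 12 of polymerase II and 17 of polymerase III.

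RNA was sequenced from the haploid laboratory strain BY4741, of mating type a and carrying deletions in HIS3, LEU2, MET17 and URA3. Cultures in rich medium (YPD), held in exponential growth, were exposed to 500 nM concanamycin A, an inhibitor of the proton-pumping V-ATPase of the vacuole, over 0, 1, 3 or 6 h. There were 3 libraries for every time. Comparisons of the later times with 0 h ask which transcripts differ after each exposure, and further comparisons, of 3 h with 1 h or of 6 h with 3 h, ask what differs between consecutive times. Every group has the same strain, medium and compound, cultures kept without the compound over the same hours were not analysed here, and time in culture and exposure cannot be told apart.

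Polymerase I transcribes the precursor of the large ribosomal RNAs, polymerase II transcribes the messenger RNAs and most small nuclear and nucleolar RNAs, and polymerase III transcribes the transfer RNAs, the 5S ribosomal RNA and other short RNAs. Each enzyme is built around a catalytic core of a largest and a second-largest subunit, to which assembly subunits, a stalk, and, in polymerases I and III, further subcomplexes that act in initiation and termination are added. In yeast the output of polymerases I and III is known to follow growth conditions, and genes of ribosome synthesis, these subunit genes among them, are known to carry promoter elements called PAC (polymerase A and C box, after the older names of polymerases I and III) and RRPE (ribosomal RNA processing element). The repressors Dot6 and Tod6 bind PAC, and Stb3 binds RRPE.

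Library totals ran from 8508894 to 11008709 counts, of which 0.478% to 0.651% fell on the 32 genes. The deleted LEU2, URA3 and MET17 had 8, 20 and 0 counts over the 12 libraries together, HIS3, which the strain lacks only in part, had 363 to 860 per library, and mating type a transcripts such as STE2 (1496 to 6329 counts) outnumbered those of the alpha pheromone gene MF(ALPHA)1 (0 to 2). STE3, another gene of mating type alpha, had 30 to 92 counts per library. Replicate 3 at 0 h stood apart. In it 144 features were over 2-fold off the mean of both other 0 h libraries, and in every other library, set against its own time, 2 to 53 did, and the median difference of the 32 genes was 0.22 on the log2 scale. By enzyme that median was 0.22 for the subunits particular to polymerase I, 0.05 for polymerase II and 0.31 for polymerase III. Fold changes are relative to TMM scaling, which assumes that most features do not change. With scaling by total counts the 5615 tested features had a median log2 fold change of 0.21, 0.35 and 0.34 at 1, 3 and 6 h against 0 h, and with TMM -0.0036, 0.02 and 0.05. For 3 h against 1 h the total-count median was 0.13, and for 6 h against 3 h it was -0.02. Counts against 0 h are therefore given under that scaling as well, while a difference between the polymerases takes the shift off, since it is the same for every gene. In bulk RNA, fewer cells carrying a transcript and less of it per cell cannot be told apart. Values are counts scaled to library size (CPM), a change is a log2 fold change ± SE, and "rose" and "fell" are used at an adjusted p under 0.05 by edgeR's quasi-likelihood test, with Benjamini-Hochberg adjustment over all tested features.

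Promoters of 5 subunit genes are shown because the PAC core splits the list by enzyme: it stands before the 4 genes of polymerases I and III and not before the polymerase II gene. Each stretch, taken from the R64 genome of RefSeq, runs 5′ to 3′ on the coding strand from 250 bases before the start codon to the 50th base of the coding sequence. Capitals mark the PAC core GATGAG, which reads CTCATC when it lies on the other strand, alone or within its longer form GCGATGAG, and the RRPE core AAAAATTT (AAATTTTT on the other strand), where copies may overlap. RPA190 (chrXV:960737-961036, plus strand) and RPA135 (chrXVI:581147-581446, minus strand) encode the core of polymerase I, RPC82 (chrXVI:918992-919291, minus strand) a polymerase III initiation subunit, RPC40 (chrXVI:746786-747085, minus strand) an assembly subunit shared by both, and RPO21 (chrIV:210512-210811, minus strand) the largest subunit of polymerase II.
RPA190: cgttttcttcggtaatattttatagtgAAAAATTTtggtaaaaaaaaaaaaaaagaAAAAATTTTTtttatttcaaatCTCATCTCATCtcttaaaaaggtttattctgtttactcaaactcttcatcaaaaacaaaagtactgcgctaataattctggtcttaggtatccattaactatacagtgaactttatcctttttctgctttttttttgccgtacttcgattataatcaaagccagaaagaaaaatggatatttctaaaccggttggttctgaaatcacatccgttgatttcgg
RPA135: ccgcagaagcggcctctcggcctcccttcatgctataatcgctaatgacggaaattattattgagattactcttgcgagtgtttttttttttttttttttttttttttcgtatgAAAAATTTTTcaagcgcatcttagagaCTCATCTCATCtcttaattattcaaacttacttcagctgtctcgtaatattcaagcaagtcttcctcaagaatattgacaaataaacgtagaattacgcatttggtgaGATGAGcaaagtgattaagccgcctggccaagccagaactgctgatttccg
RPC82: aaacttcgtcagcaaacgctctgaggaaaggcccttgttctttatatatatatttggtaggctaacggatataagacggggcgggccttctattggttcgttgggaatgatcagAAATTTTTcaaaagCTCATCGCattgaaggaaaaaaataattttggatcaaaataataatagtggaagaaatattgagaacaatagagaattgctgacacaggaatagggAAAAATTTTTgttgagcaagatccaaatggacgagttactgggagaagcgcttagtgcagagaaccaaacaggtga
RPC40: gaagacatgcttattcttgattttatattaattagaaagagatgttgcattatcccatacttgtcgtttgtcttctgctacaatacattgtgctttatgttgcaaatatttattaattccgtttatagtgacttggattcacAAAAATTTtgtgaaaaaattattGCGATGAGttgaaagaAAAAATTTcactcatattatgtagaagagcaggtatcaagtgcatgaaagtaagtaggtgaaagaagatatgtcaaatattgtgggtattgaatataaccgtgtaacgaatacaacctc
RPO21: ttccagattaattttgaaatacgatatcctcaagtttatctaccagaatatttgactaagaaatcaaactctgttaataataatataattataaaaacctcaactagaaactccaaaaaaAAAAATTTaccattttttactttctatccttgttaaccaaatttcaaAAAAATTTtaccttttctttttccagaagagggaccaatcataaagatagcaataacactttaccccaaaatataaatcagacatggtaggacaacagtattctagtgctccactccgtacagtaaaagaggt
RPA190 and RPA135 each held a pair of overlapping PAC cores on the non-coding strand, 172 and 167 bases before the start codon in RPA190 and 109 and 104 bases before it in RPA135. A further core in RPA135 begins 1 base before the start codon and includes it. RPC82 and RPC40 held the longer form, 122 and 85 bases before the start. RPO21 held 2 RRPE cores and no PAC core in this window.

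Over the whole list, the PAC core stood in the windows of 6 of 7 genes particular to polymerase I, 8 of 10 particular to polymerase III and 2 of 2 shared by those enzymes. It stood in 1 of 7 particular to polymerase II (RPB2, at 33 bases inside the coding sequence), 0 of 5 shared by all 3 and not in RPO41. Of 6001 protein-coding genes, 1222 (20.4%) held it. The genes of polymerases I and III without it were RPA12, RPC17 and RPC11. The longer form was found in 6 of the 32 windows and in 3.93% of all. RRPE cores were spread over more of the list, in 6 of 7, 7 of 10 and 2 of 2 of the polymerase I, polymerase III and jointly owned genes, 2 of 7 of polymerase II and 4 of 5 of those shared by all 3, against 14.1% of all promoters. PAC is named after genes of this kind, so the split is a description of these promoters. A match of letters is not a measured binding site.

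**Figure D1:**
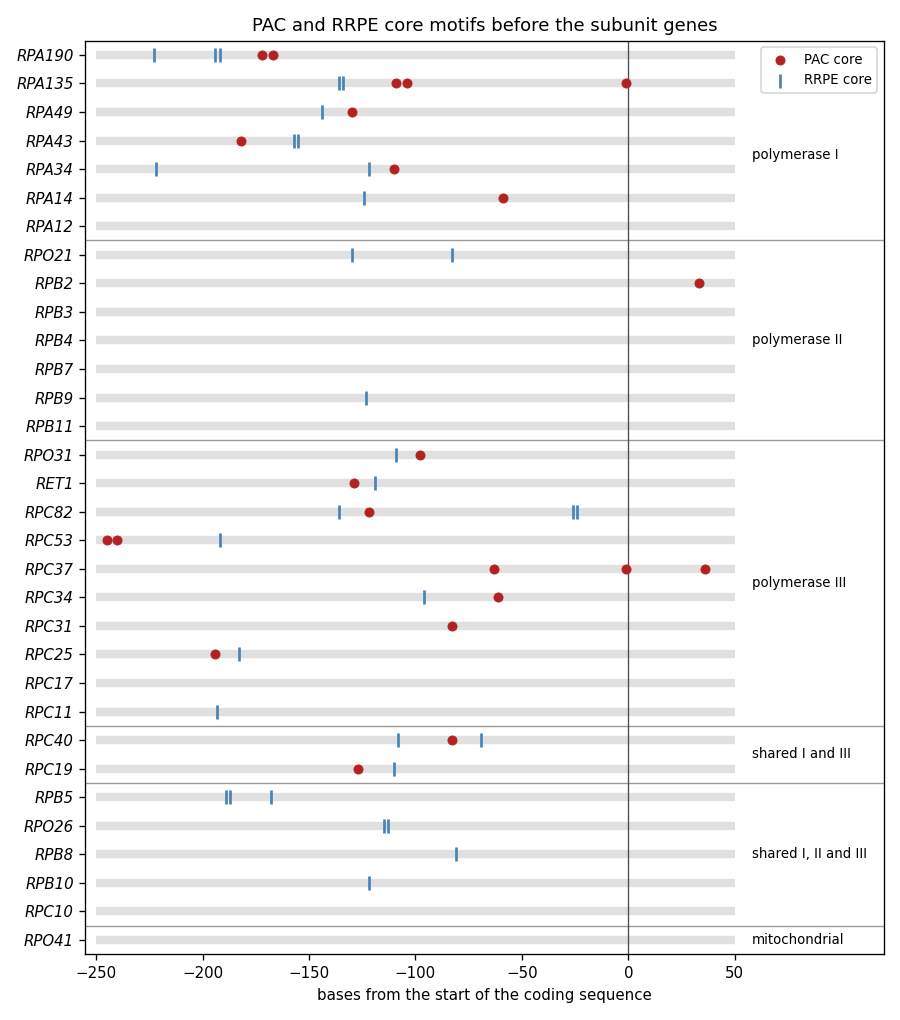
Positions of PAC core (circles) and RRPE core (bars) matches on either strand in the window of each subunit gene, in bases from the start of the coding sequence (0); grey bars show the window searched. PAC cores lie in front of genes of polymerases I and III, and in the polymerase II block the single match (RPB2) lies inside the coding sequence.

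The list as a whole had more decreases than increases at 1 and 6 h, and the steps between 1 and 3 h and between 3 and 6 h went in opposite directions. At 1 h against 0 h, 2 of the 32 genes rose and 12 fell (6.2% and 37.5%), beside 24.5% and 23.4% of all tested features, or 47.9% in either direction. At 3 h against 0 h, 10 rose and 5 fell (31.2% and 15.6%), beside 26.3% and 24.5% of all features, or 50.8% in either direction. At 6 h against 0 h, 1 rose and 17 fell (3.1% and 53.1%), beside 33% and 28.9% of all features, or 61.9% in either direction. At 3 h against 1 h, 14 rose and 0 fell, beside 16.9% and 17.6% of all features (34.5% in either direction), and 2 were lower at an unadjusted p under 0.05. At 6 h against 3 h, 22 fell and 0 rose, beside 21.7% and 21% of all (42.7% in either direction), and 0 were higher at an unadjusted p under 0.05. DESeq2 likewise gave 0 lower at 3 h against 1 h and 0 higher at 6 h against 3 h. Over the 4 times, 27 of 32 changed by the edgeR F test, beside 78.5% of all features. Against 0 h, with total counts, 7 rose and 3 fell at 1 h, 24 rose and 0 fell at 3 h, and 10 rose and 9 fell at 6 h. Likewise 19 rose and 0 fell at 3 h against 1 h, while 23 fell and 0 rose at 6 h against 3 h. All calls between consecutive times were kept with total counts, and so were all increases against 0 h. Total counts raise every value against 0 h and at 3 h against 1 h, and lower every value at 6 h against 3 h. That is the direction of the calls kept, so their being kept is no test of them. Of the decreases against 0 h, 9 of 12 at 1 h, 5 of 5 at 3 h and 8 of 17 at 6 h were not called with total counts. Those kept were RPC34, RPC31 and RPB8 at 1 h, and RPA190, RPA135, RPA43, RPA12, RPB4, RPC31, RPC19, RPB8 and RPO26 at 6 h. Of all features that passed the test, the share that was higher was 81.1%, 87.8% and 80.2% at 1, 3 and 6 h under total counts, against 51.1%, 51.7% and 53.4% under TMM.

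Counted without a test in TMM-scaled CPM, 1 gene had every 1 h library above every 0 h library and 13 had every one below, beside 27.5% and 26.6% of all features. For 3 h against 0 h these were 6 above and 8 below, beside 29.3% and 27.1%, and for 6 h against 0 h 2 above and 15 below, beside 34.2% and 29.2%. Between 3 h and 1 h, 19 genes had all 3 h libraries above and 3 below, beside 27% and 27.6%, and between 6 h and 3 h, 2 had all 6 h libraries above and 26 below, beside 29.8% and 29.3%. When each of the 12 libraries was left out in turn, 8 of the 12 decreases at 1 h, 15 of the 17 at 6 h, 9 of the 14 increases at 3 h against 1 h and 14 of the 22 decreases at 6 h against 3 h held in every fit. Of the 10 increases at 3 h against 0 h, 3 held (RPB9, RPC37 and RPC82). That count was 3 without 0 h replicate 2, and 4 without 0 h replicate 1, 3 h replicate 2 or 3 h replicate 3. The 22 decreases at 6 h against 3 h numbered 14 without 6 h replicate 1.

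**Figure D2:**
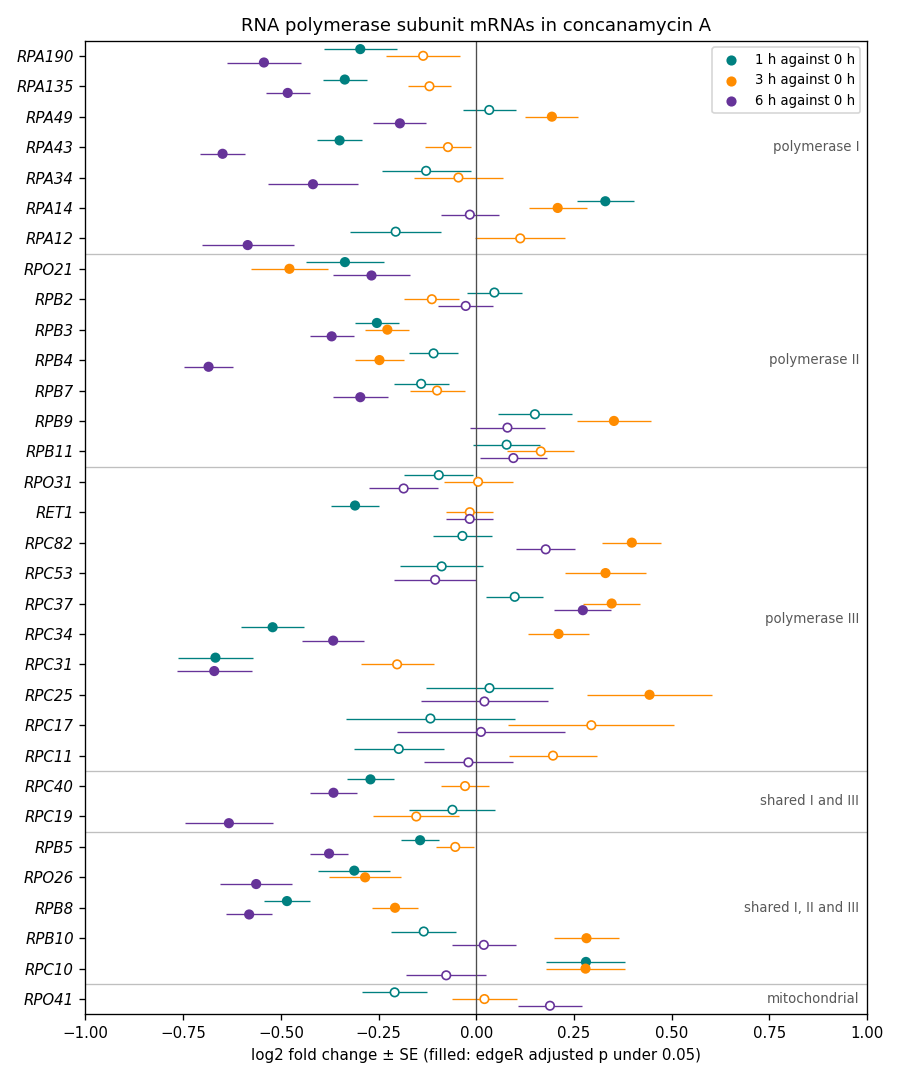
Log2 fold change (± SE) of each subunit gene at 1, 3 and 6 h against 0 h, by enzyme; filled points passed an adjusted p under 0.05 by edgeR. The polymerase I and shared genes lie mostly left of 0 at 6 h, and most polymerase III genes lie right of 0 at 3 h.

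Of the genes particular to polymerase I, 6 of 7 were lower at 6 h than at 0 h (0 higher, also at an unadjusted p under 0.05 and by DESeq2), beside 28.9% of all features lower, with a median log2 fold change of -0.48, beside 0.05 for all tested features. With total counts 4 of 7 were lower and 1 higher. Before that, 1 rose and 3 fell at 1 h, beside 24.5% and 23.4% of all features, while with total counts 2 rose and 0 fell. At 3 h 2 rose (RPA14 and RPA49) and 0 fell, beside 26.3% and 24.5%, and with total counts 6 rose and 0 fell. All 7 fell at 6 h against 3 h under both scalings, beside 21.7% of all features. The largest subunit, RPA190 (YOR341W, chromosome XV, 960987 to 965981, plus strand), stood at 941, 1006 and 1301 CPM at 0 h, 917, 870.4 and 856 after 1 h, 974, 985 and 997 after 3 h, and 704, 749.9 and 775 after 6 h. Its 6 h libraries lay below every other library. The change at 6 h was -0.54 ± 0.09 (adjusted p = 0.000274). The decrease at 1 h, -0.30 ± 0.09 (adjusted p = 0.0204), was not called without 1 h replicates 2 or 3 (log2 fold change -0.28 to -0.29, adjusted p 0.0588 to 0.0648). The second-largest subunit, RPA135 (YPR010C, chromosome XVI, 577585 to 581196, minus strand), was measured at 676, 666 and 738 CPM at 0 h, 583, 529.6 and 535 after 1 h, 639.6, 636 and 639.7 after 3 h, and 477, 488 and 524 after 6 h. The 1 h libraries and the 6 h libraries both lay below all 0 h and 3 h libraries. The change was -0.48 ± 0.06 at 6 h (adjusted p = 6.31e-06) and -0.34 ± 0.06 at 1 h (adjusted p = 0.000269).

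The stalk of polymerase I, which receives the initiation factor Rrn3, is formed by RPA43 and RPA14. RPA43 (YOR340C, chromosome XV, 959202 to 960182, minus strand) had 173, 192 and 204 CPM at 0 h, 151, 147 and 147 after 1 h, 176, 182 and 183 after 3 h, and 123, 117 and 122 after 6 h, with every 1 h and 6 h library below every 0 h library. It had the largest decrease of the 7 at 6 h, -0.65 ± 0.06 (adjusted p = 5.38e-07). With total counts the decreases of RPA190, RPA135 and RPA43 at 1 h were -0.08, -0.12 and -0.14, none of them a call (adjusted p = 0.466, 0.106 and 0.0576). RPA14 (YDR156W, chromosome IV, 769525 to 769938, plus strand) had 67.6, 63.6 and 72.4 CPM at 0 h, 87.6, 85.3 and 83.1 after 1 h, 78.1, 76.8 and 80.2 after 3 h, and 60.1, 73.9 and 67.2 after 6 h. It rose at 1 h, by 0.33 ± 0.07 (adjusted p = 0.00246), with no overlap between the times, and its 6 h libraries overlapped those at 0 h. At 3 h its change was 0.21 ± 0.07 (adjusted p = 0.0319), a call lost without 0 h replicates 1 or 2 or 3 h replicates 1, 2 or 3 (log2 fold change 0.14 to 0.22, adjusted p 0.0594 to 0.204). The last 8 bases of the RPA14 gene model overlap the gene YDR157W on the same strand, and reads there could be counted for either. RPA43 and RPA190 are neighbours, transcribed away from each other across 804 bp, and in both the values at 1 and 6 h against 0 h were decreases past the threshold, of which those at 6 h remained calls with total counts.

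RPA49 and RPA34 form a heterodimer that acts in initiation and elongation, and RPA12 is a small subunit for cleavage of the nascent RNA. RPA49 (YNL248C, chromosome XIV, 181361 to 182608, minus strand) stood at 242, 260.0 and 293 CPM at 0 h, 269, 276 and 268 after 1 h, 289, 310.1 and 310.3 after 3 h, and 218, 234 and 242 after 6 h. The 3 h libraries were mostly above and the 6 h libraries mostly below those at 0 h, with overlap in both cases. Its increase at 3 h, 0.19 ± 0.07 (adjusted p = 0.0302), was lost without 0 h replicates 1 or 2 or 3 h replicates 2 or 3 (log2 fold change 0.13 to 0.17, adjusted p 0.0978 to 0.134), and its decrease at 6 h, -0.20 ± 0.07 (adjusted p = 0.0237), was lost without 6 h replicates 1 or 2 (log2 fold change -0.15 to -0.20, adjusted p 0.0505 to 0.0872). With total counts that 6 h value was 0.11. RPA12 (YJR063W, chromosome X, 555195 to 555572, plus strand) was found at 66.9, 69.6 and 86.5 CPM at 0 h, 57.8, 62.0 and 73.0 after 1 h, 75.6, 85.4 and 79.6 after 3 h, and 43.0, 53.9 and 51.5 after 6 h, and all its 6 h libraries lay below all others. Its change at 6 h was -0.58 ± 0.12 (adjusted p = 0.000801). RPA34 fell at 6 h as well, with -0.42 ± 0.12 (adjusted p = 0.00678; with total counts -0.11 and no call, adjusted p = 0.374) and 44.9 to 53.9 CPM at 6 h, against 55.9 to 79.8 CPM at 0 h.

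**Figure D3:**
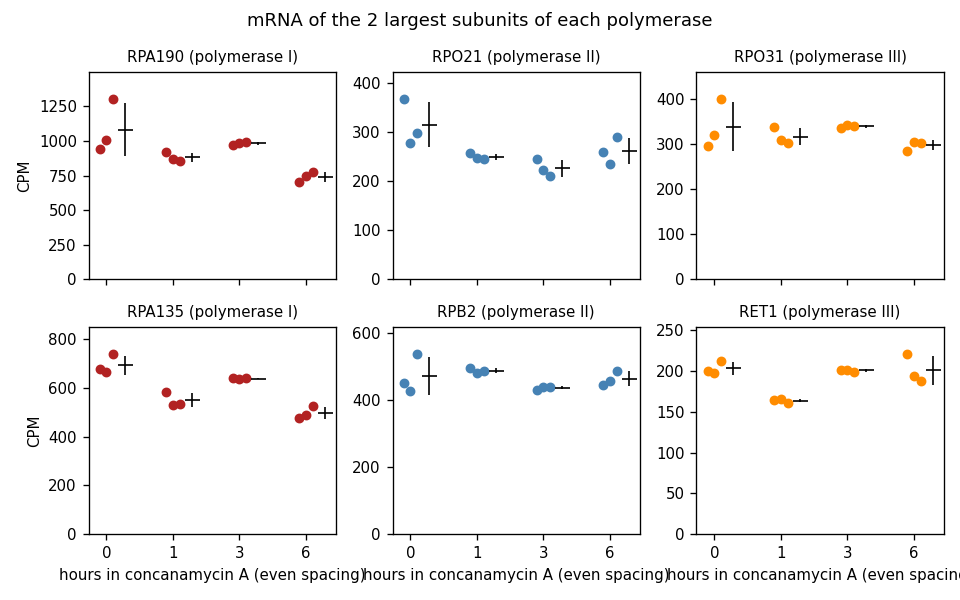
CPM of the largest (top row) and the second-largest (bottom row) subunit of polymerases I, II and III in each library, with the mean and SD of the 3 libraries beside the points; each panel starts at 0. RPA190 and RPA135 are lowest at 6 h, RPO21 is lowest at 3 h, and RET1 is lowest at 1 h.

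Of the 7 genes particular to polymerase II, 2 fell at 1 h, beside 23.4% of all features, while with total counts 3 rose and 0 fell. At 3 h 1 rose and 3 fell, beside 26.3% and 24.5%, while with total counts 4 rose and 0 fell. At 6 h 4 of 7 were lower than at 0 h (RPO21, RPB3, RPB4 and RPB7), beside 28.9% of all features, and 0 higher, also at an unadjusted p under 0.05 and by DESeq2, with a median of -0.27. With total counts 3 were higher and 1 lower. At 3 h against 1 h 0 rose and 0 fell by edgeR and by DESeq2, beside 16.9% and 17.6% of all features by edgeR. At an unadjusted p under 0.05, 1 was higher and 2 lower. At 6 h against 3 h 3 of 7 fell and 0 rose, beside 21.7% and 21%, and with total counts 4 fell and 0 rose. Of those 3 decreases, 1 held without each library in turn. RPO21 (YDL140C, chromosome IV, 205360 to 210561, minus strand), the largest subunit, which carries the repeated C-terminal tail, stood at 366, 279 and 299 CPM at 0 h, 257, 247 and 244 after 1 h, 244, 223 and 211 after 3 h, and 259, 236 and 290.0 after 6 h. All 1 h and 3 h libraries lay below all 0 h libraries, the spread at 0 h being set by replicate 1 at the top. Its change was -0.48 ± 0.10 at 3 h (adjusted p = 0.00158), and -0.15 with total counts, no longer a call (adjusted p = 0.226). At 1 h it was -0.34 ± 0.10 (adjusted p = 0.0141), lost without 0 h replicate 1 (log2 fold change -0.21, adjusted p 0.0599) and with total counts (-0.13, adjusted p = 0.329), and at 6 h it was -0.27 ± 0.10 (adjusted p = 0.0319), lost without 0 h replicate 1 or 6 h replicates 1 or 2 (log2 fold change -0.14 to -0.26, adjusted p 0.0779 to 0.16) and 0.03 with total counts. The partner of RPO21 in the catalytic core, RPB2 (YOR151C, chromosome XV, 612997 to 616671, minus strand), had 452, 429 and 537 CPM at 0 h, 496, 482 and 487 after 1 h, 432, 438 and 441 after 3 h, and 445, 459 and 488 after 6 h. Its libraries overlapped between 0 h and each later time, and its changes against 0 h were 0.05 ± 0.07, -0.11 ± 0.07 and -0.03 ± 0.07 at 1, 3 and 6 h, none past the threshold (adjusted p = 0.611, 0.196 and 0.758). The change at 3 h was -0.21 (adjusted p = 0.0298) without 0 h replicate 2.

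The stalk of polymerase II is the RPB4 and RPB7 heterodimer, which also has roles after transcription. RPB4 (YJL140W, chromosome X, 150961 to 151626, plus strand) had 94.9, 95.7 and 105 CPM at 0 h, 89.0, 89.5 and 95.4 after 1 h, 80.5, 84.7 and 83.5 after 3 h, and 59.5, 65.7 and 58.5 after 6 h, and its 6 h libraries lay below all others. It had the largest decrease of the polymerase II genes, -0.68 ± 0.06 at 6 h (adjusted p = 6.81e-07), and a smaller one at 3 h, -0.25 ± 0.06 (adjusted p = 0.00508), which was 0.09 with total counts. RPB7 fell at 6 h, with -0.30 ± 0.07 (adjusted p = 0.00266), and stood at 0.0017 with total counts. RPB9 (YGL070C, chromosome VII, 374459 to 374827, minus strand), a zinc-binding subunit with a part in transcription fidelity, was the polymerase II gene that rose at 3 h. It stood at 52.2, 52.4 and 62.6 CPM at 0 h, 57.2, 58.2 and 69.7 after 1 h, 68.0, 67.9 and 77.0 after 3 h, and 55.8, 59.4 and 61.3 after 6 h, with its 3 h libraries above those at 0 h and its 6 h libraries among them. Its change at 3 h was 0.35 ± 0.09 (adjusted p = 0.00776). RPB3 and RPB11 form the assembly heterodimer. RPB3 fell at 1, 3 and 6 h (-0.25 ± 0.06, -0.23 ± 0.06 and -0.37 ± 0.06; adjusted p = 0.00225, 0.00458 and 7.75e-05), while with total counts its values were -0.04, 0.11 and -0.07, none of them a call. RPB11 passed the threshold in no comparison, with changes between -0.07 and 0.17.

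Of the genes particular to polymerase III, 3 of 10 fell at 1 h (RET1, RPC34 and RPC31), a share near the 23.4% of all features, and 0 rose, also at an unadjusted p under 0.05 and by DESeq2. With total counts 2 fell and 1 rose. At 3 h 5 of 10 rose against 0 h (RPC25, RPC82, RPC37, RPC53 and RPC34), beside 26.3% of all features, and 0 fell, with 1 lower at an unadjusted p under 0.05 and 0 by DESeq2. The median was 0.25, beside 0.02 for all tested features, and with total counts 9 rose and 0 fell. Of those 5, RPC82 and RPC37 kept the call without each library in turn. The count was 2 without 0 h replicate 1 or 2 or 3 h replicate 2 or 3, and 7 without 0 h replicate 3, the library that stands apart and in which these genes were high. At 3 h against 1 h 7 rose, beside 16.9% of all features, and 0 fell, also at an unadjusted p under 0.05 and by DESeq2. At 6 h against 3 h 5 of 10 fell and 0 rose under both scalings, beside 21.7% and 21% of all features. Their median was -0.25, and 3 of the 5 decreases held without each library in turn. At 6 h against 0 h 1 rose (RPC37) and 2 fell (RPC31 and RPC34), beside 33% and 28.9%, with a median of -0.02. With total counts 4 rose and 1 fell.

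The largest subunit, RPO31 (YOR116C, chromosome XV, 539763 to 544145, minus strand), had 296, 321 and 399 CPM at 0 h, 338, 309.9 and 303 after 1 h, 336, 343 and 340.0 after 3 h, and 284, 305 and 304 after 6 h. The 0 h libraries were spread more widely than those of any later time, and its changes were -0.10 ± 0.09, 0.00 ± 0.09 and -0.19 ± 0.09 at 1, 3 and 6 h (adjusted p = 0.388, 0.968 and 0.0842). The last became a call without 0 h replicate 1 (-0.28, adjusted p = 0.0112) and without 0 h replicate 2 (-0.26, adjusted p = 0.0443). RET1 (YOR207C, chromosome XV, 730008 to 733457, minus strand), the second-largest subunit, stood at 199, 197 and 213 CPM at 0 h, 165, 165 and 161 after 1 h, 202, 202 and 199 after 3 h, and 220.4, 194 and 187 after 6 h. Its 1 h libraries lay below all others, and the later times lay around the 0 h values. It fell at 1 h, -0.31 ± 0.06 (adjusted p = 0.00095), a call lost with total counts (-0.10, adjusted p = 0.143), and rose at 3 h against 1 h, 0.29 ± 0.06 (adjusted p = 0.00233).

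RPC82, RPC34 and RPC31 form a heterotrimer that acts in transcription initiation. RPC82 (YPR190C, chromosome XVI, 917077 to 919041, minus strand) had 107, 114 and 135 CPM at 0 h, 116, 114 and 117 after 1 h, 149, 154 and 165 after 3 h, and 129, 139 and 134 after 6 h, with the 3 h libraries above all others. Its change at 3 h was 0.40 ± 0.08 (adjusted p = 0.000727). RPC34 (YNR003C, chromosome XIV, 634344 to 635297, minus strand) had 90.2, 99.0 and 114 CPM at 0 h, 69.7, 69.0 and 72.2 after 1 h, 111, 116 and 123 after 3 h, and 72.9, 80.3 and 81.6 after 6 h. It lay below every 0 h library in every 1 h and 6 h library, and within or above the 0 h range at 3 h. The changes were -0.52 ± 0.08 at 1 h (adjusted p = 0.000146), 0.73 ± 0.08 at 3 h against 1 h (adjusted p = 1.54e-05) and -0.58 ± 0.08 at 6 h against 3 h (adjusted p = 0.000113). At 6 h against 0 h it was -0.37 ± 0.08 (adjusted p = 0.0014), and -0.06 with total counts, no longer a call (adjusted p = 0.501). Its increase at 3 h against 0 h, 0.21 ± 0.08 (adjusted p = 0.0396), was lost without 0 h replicates 1 or 2, 1 h replicate 2, 3 h replicates 2 or 3 or 6 h replicate 2 (log2 fold change 0.13 to 0.21, adjusted p 0.0515 to 0.172). RPC31 (YNL151C, chromosome XIV, 347766 to 348521, minus strand) was among the least abundant of the list, at 26.1, 26.1 and 26.1 CPM at 0 h, 15.9, 15.1 and 18.2 after 1 h, 20.8, 23.0 and 24.2 after 3 h, and 15.3, 16.2 and 17.6 after 6 h. All its later libraries lay below those at 0 h, and it fell at 1 h and 6 h, -0.67 ± 0.10 and -0.67 ± 0.10 (adjusted p = 8.07e-05 and 4.58e-05).

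RPC25 and RPC17 form the stalk of polymerase III, RPC53 and RPC37 a heterodimer for termination and reinitiation, and RPC11 is the RNA cleavage subunit. RPC25 (YKL144C, chromosome XI, 175843 to 176481, minus strand) had 27.0, 28.7 and 40.1 CPM at 0 h, 27.4, 34.0 and 36.1 after 1 h, 37.6, 44.1 and 47.8 after 3 h, and 27.4, 33.9 and 35.5 after 6 h. Replicate 3 at 0 h lay above both other 0 h libraries and within the range at 3 h. Its increase at 3 h, 0.44 ± 0.16 (adjusted p = 0.0352), was lost without 0 h replicates 1 or 2 or 3 h replicates 2 or 3 (log2 fold change 0.33 to 0.43, adjusted p 0.0866 to 0.135). RPC17 had 17.3, 23.4 and 37.3 CPM at 0 h, spread more widely than at any later time, and its 3 h value of 0.29 ± 0.21 was not called (adjusted p = 0.269). Without 0 h replicate 3 it was 0.61 (adjusted p = 0.00103). RPC11 likewise was not called at 3 h with all libraries (0.20 ± 0.11, adjusted p = 0.166) and was without 0 h replicate 3 (0.33, adjusted p = 0.00384). RPC37, at 30.6 to 33.0 CPM at 3 h against 24.4 to 26.8 CPM at 0 h, rose at 3 h and 6 h (0.35 ± 0.07 and 0.27 ± 0.07; adjusted p = 0.00152 and 0.00544). RPC53 rose at 3 h, 0.33 ± 0.10 (adjusted p = 0.0185), a call lost without 0 h replicates 1 or 2 or 3 h replicates 2 or 3 (log2 fold change 0.24 to 0.31, adjusted p 0.0566 to 0.0786).

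Of the 7 shared subunits, 5 were lower at 6 h than at 0 h, beside 28.9% of all features, and with total counts 3 were lower and 1 higher. All 7 fell at 6 h against 3 h under both scalings, beside 21.7%. At 1 h against 0 h 1 rose and 4 fell, beside 24.5% and 23.4%, while with total counts 1 rose and 1 fell, and at 3 h 2 rose and 2 fell, beside 26.3% and 24.5%, while with total counts 4 rose and 0 fell. The 2 genes shared by polymerases I and III form the assembly heterodimer that corresponds to RPB3 and RPB11. RPC19 (YNL113W, chromosome XIV, 412771 to 413199, plus strand) had 117, 130.0 and 151 CPM at 0 h, 117, 127 and 137 after 1 h, 111, 119 and 127 after 3 h, and 72.3, 89.6 and 94.6 after 6 h, and its 6 h libraries lay below all others. Its change at 6 h was -0.63 ± 0.11 (adjusted p = 0.000319). RPC40 fell at 1 h and 6 h (-0.27 ± 0.06 and -0.37 ± 0.06; adjusted p = 0.00269 and 0.000173), and both calls were lost with total counts (-0.06 each; adjusted p = 0.498 and 0.417). Among the subunits of all 3 enzymes, RPB8 (YOR224C, chromosome XV, 760825 to 761265, minus strand) had 179, 182 and 201 CPM at 0 h, 132, 131 and 139 after 1 h, 163, 157 and 166 after 3 h, and 118, 129 and 128 after 6 h. Every later library of RPB8 lay below every 0 h library, and its decreases were -0.48 ± 0.06, -0.21 ± 0.06 and -0.58 ± 0.06 at 1, 3 and 6 h (adjusted p = 1.79e-05, 0.00984 and 1.74e-06), of which the 3 h value was 0.13 with total counts. RPB5 also fell at 1 h, a call lost without 1 h replicate 1, 2 or 3 and 0.07 with total counts. RPB5 and RPO26 fell at 6 h, -0.38 ± 0.05 and -0.56 ± 0.09 (adjusted p = 1.91e-05 and 0.00015), and RPB5 lost that call with total counts (-0.08, adjusted p = 0.213). RPO26, the only member with an intron, starts 234 bp from PZF1, the gene of the 5S factor TFIIIA, which is transcribed the other way.

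At 3 h RPB8 and RPO26 fell (-0.28 ± 0.09 for RPO26, adjusted p = 0.0209, and 0.05 with total counts), and the small zinc-binding subunits RPB10 and RPC10 rose. RPB10 (YOR210W, chromosome XV, 738320 to 738532, plus strand) had 89.0, 90.7 and 104 CPM at 0 h, 80.1, 87.0 and 90.9 after 1 h, 114, 113 and 118 after 3 h, and 85.0, 97.0 and 105 after 6 h, with its 3 h libraries above all others. It rose at 3 h, 0.28 ± 0.08 (adjusted p = 0.0119), a call lost without 0 h replicate 2 (log2 fold change 0.23, adjusted p 0.0665). RPC10 (YHR143W-A, chromosome VIII, 387233 to 387445, plus strand) had 43.0, 43.7 and 58.5 CPM at 0 h, 55.5, 58.7 and 61.5 after 1 h, 58.1, 57.7 and 59.8 after 3 h, and 44.3, 44.5 and 48.5 after 6 h, and replicate 3 at 0 h lay within the range of the 1 and 3 h libraries. Its increases at 1 and 3 h were both 0.28 on the log2 scale (± SE 0.10 each; adjusted p = 0.0357 and 0.0347). The first was lost without 0 h replicates 1 or 2, 1 h replicates 2 or 3 or 3 h replicate 2 (log2 fold change 0.18 to 0.28, adjusted p 0.0515 to 0.188), and the second without 0 h replicates 1 or 2, 1 h replicate 2 or 3 h replicates 1, 2 or 3 (log2 fold change 0.19 to 0.29, adjusted p 0.0502 to 0.175).

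RPO41 (YFL036W, chromosome VI, 58782 to 62837, plus strand), the mitochondrial polymerase, stood at 192, 179 and 156 CPM at 0 h, 169.7, 146 and 141 after 1 h, 182, 181 and 173 after 3 h, and 211, 194 and 197 after 6 h. Its 6 h libraries lay above all 0 h libraries, and its changes were -0.21 ± 0.08, 0.02 ± 0.08 and 0.19 ± 0.08 at 1, 3 and 6 h (adjusted p = 0.0522, 0.848 and 0.0614), none past the threshold. The value at 1 h was called without 0 h replicate 3 (-0.33, adjusted p = 0.00182) and without 1 h replicate 1 (-0.29, adjusted p = 0.0115), and that at 6 h without 0 h replicate 1 (0.26, adjusted p = 0.0189) and without 1 h replicate 1 (0.19, adjusted p = 0.0377). At 3 h against 1 h it rose, 0.23 ± 0.08 (adjusted p = 0.0457), a call lost in 8 of the 12 fits that leave out a library. MTF1, its initiation factor, had 22.7, 23.6 and 22.8 CPM at 0 h, 25.4, 26.9 and 27.5 after 1 h, 27.3, 30.1 and 32.6 after 3 h, and 22.0, 23.3 and 23.2 after 6 h, and rose at 3 h (0.38 ± 0.08, adjusted p = 0.00162). Its increase at 1 h (0.21 ± 0.08, adjusted p = 0.0485) was kept in 4 of the 12 fits that leave out a library.

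Set side by side, the median of polymerase III's own subunits stood highest at 3 h and that of polymerase I lowest at 6 h. The 2 largest subunits of polymerase III did not follow its median at 3 h. Per kb of coding length, RPO31 averaged 77.3 CPM at 0 h and 77.5 at 3 h, and RET1 58.8 and 58.2. For each library, the median over an enzyme's own subunits of the log2 CPM minus the gene's mean at 0 h was taken. At 0 h, replicates 1, 2 and 3 had -0.13, -0.08 and 0.15 for polymerase I, -0.04, -0.04 and 0.03 for polymerase II and -0.15, -0.05 and 0.21 for polymerase III. At 3 h polymerase III had 0.23, 0.20 and 0.34, above polymerase I at -0.09, 0.05 and -0.05 and polymerase II at -0.12, -0.12 and -0.14. At 6 h polymerase I had -0.54, -0.45 and -0.40, below polymerase II at -0.27, -0.16 and -0.11 and polymerase III at -0.12, 0.02 and -0.02. As differences between the median log2 fold changes, polymerase III exceeded polymerase II by 0.37 and polymerase I by 0.30 at 3 h (between-library SD of the difference 0.166 and 0.127). At 6 h polymerase III exceeded polymerase I by 0.46 (SD 0.0652), and polymerase I was lower than polymerase II, the difference being -0.21 (SD 0.109), which was -0.0851 without 0 h replicate 3 and -0.376 without 0 h replicate 1. At 1 h the differences were within or near that SD, at -0.10 for polymerase I minus II, 0.00 for III minus II and 0.10 for III minus I (SD 0.115, 0.159 and 0.101). The excess of polymerase III over polymerase II at 6 h, 0.25 (SD 0.155), was -0.00574 without 0 h replicate 1 and 0.388 without 0 h replicate 3. The SDs come from the per-library medians above, a different measure from the median fold changes. By library, polymerase III minus II was 0.15, 0.18 and 0.08 at 6 h, against -0.11, -0.01 and 0.17 at 0 h, which overlap. Polymerase I minus II was -0.27, -0.29 and -0.29 at 6 h, against -0.09, -0.04 and 0.12 at 0 h. These are descriptions with no test, since the genes of an enzyme are not replicates.

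**Figure D4:**
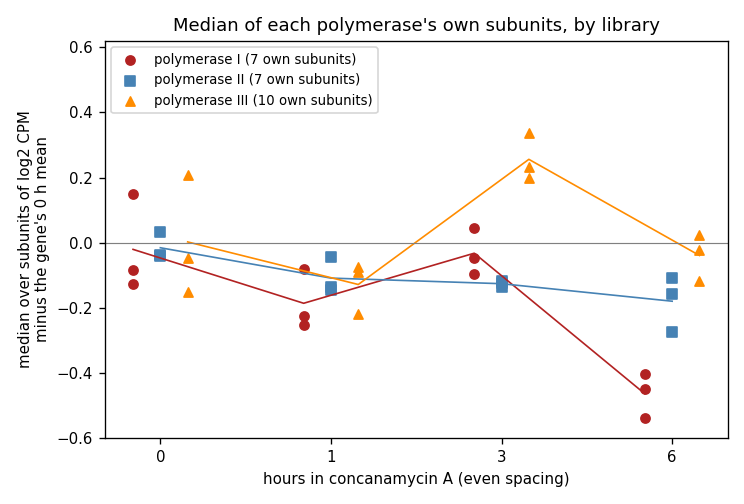
Median over the subunits particular to each polymerase of log2 CPM minus the gene's mean at 0 h, 1 point per library, with lines through the means of the 3 libraries. Polymerase III lies above the others in all 3 h libraries, and polymerase I lies below the others in all 6 h libraries.

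Ratios taken within a library do not depend on scaling and could be tested, gene pair by gene pair. Counts of the catalytic subunits were divided by coding length and set in 9 log2 ratios, each tested over the 4 times by an exact permutation test over all 15400 ways of splitting 12 libraries into 4 groups of 3, with Benjamini-Hochberg adjustment over the 9. The ratio of RPO31 to RPA190 was -1.48, -1.46 and -1.52 at 0 h, -1.25, -1.30 and -1.31 after 1 h, -1.35, -1.33 and -1.36 after 3 h, and -1.12, -1.11 and -1.16 after 6 h. No library of a time overlapped with a library of another. The exact permutation p was 6.5e-05, the smallest these splits can give, and 0.000584 after adjustment. RET1 to RPA135, the same pair of enzymes, averaged -1.24 ± 0.188 at 6 h against -1.71 ± 0.0204 at 0 h (SD, n = 3 each; exact permutation test, adjusted p = 0.00701). In both pairs the polymerase III transcript was higher relative to the polymerase I transcript at 6 h than at 0 h, in every library.

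RPA135 to RPB2 took 2 levels, 0.19 ± 0.0568 at 1 h and 0.12 ± 0.00721 at 6 h, against 0.58 ± 0.0913 at 0 h and 0.57 ± 0.0176 at 3 h (SD, n = 3 each; exact permutation test, adjusted p = 0.00701). RET1 to RPB2 was lowest at 1 h, -1.49 ± 0.0303, against -1.12 ± 0.111 at 0 h (SD, n = 3 each; exact permutation test, adjusted p = 0.0266), and this adjusted p was 0.0769 to 0.0935 without 1 h replicate 1, 2 or 3. The ratios with RPO21 did not pass, at an adjusted p of 0.0771 for RPA190, 0.0853 for RPO31 and 0.0771 for RPB2 as the partner (exact permutation test, n = 3 libraries a time). Their 0 h libraries were spread, with RPA190 to RPO21 at 1.42, 1.91 and 2.18 at 0 h. Each of those with RPA190 and RPO31 passed without 0 h replicate 1 (adjusted p = 0.00935 and 0.0355) or 0 h replicate 3 (0.0151 for both), and that with RPB2 without 0 h replicate 3 (0.014). Within an enzyme, RPA190 to RPA135 had an adjusted p of 0.638, and 0.0151 without 0 h replicate 3, while RPO31 to RET1 had 0.0569, and 0.0184, 0.014 and 0.0408 without 0 h replicate 1, 0 h replicate 3 or 6 h replicate 3 (exact permutation test).

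**Figure D5:**
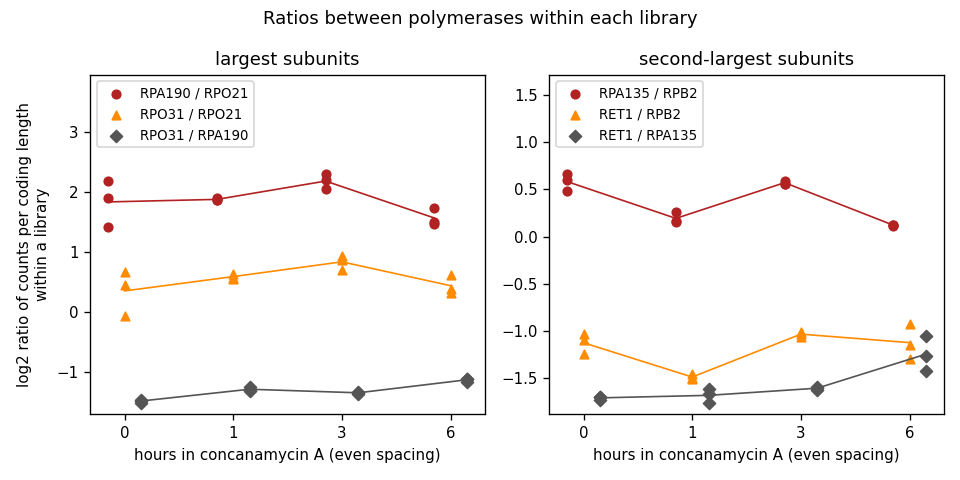
Log2 ratio of counts per coding length between catalytic subunits of different polymerases in each library (points), with lines through the means of the 3 libraries of a time. RPO31 to RPA190 climbs to -1.13 at 6 h, against -1.48 at 0 h, and RPA135 to RPB2 is low at 1 and 6 h.

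Levels were compared between genes per coding length (CPM per kb). At 0 h the 7 shared genes took the 7 highest places of the 32, led by RPB10 (444 ± 38.4), RPB8 (425 ± 26.9) and RPC40 (352 ± 24.1; SD, n = 3 each). RPB10 and RPB8 differed by less than their SD, and RPC40 lay below both by more than that. RPC10, the lowest of the shared genes, had 227 ± 41.0, and RPA190 came next at 217 ± 38.4, within that SD. RPA49, RPB11, RPA12, RPA43 and RPA135 followed between 212 and 192, within the SD of RPA190. The genes particular to polymerase III stood in places 19 to 32, between 106 ± 12.6 for RPC34 and 29.7 ± 1.63 for RPC37. RPO21, the largest subunit of polymerase II, had 60.5 ± 8.84, and RPO41 had 43.3 ± 4.54. The median of 5512 tested genes was 43.0. At 6 h RPB10 was still highest, at 449 ± 47.8, and RPC31 lowest, at 21.7 ± 1.55. The level summed over polymerase I's own subunits was 896 to 994 CPM per kb at 6 h, against 1166 to 1424 at 0 h, with no overlap. That of polymerase II was 818 to 899 at 6 h, against 933 to 1012 at 0 h, also apart. Both separations are of TMM-scaled values, and the sums were not taken with total counts. Under that scaling the median log2 fold change at 6 h against 0 h was -0.18 for polymerase I and 0.03 for polymerase II. The summed level of polymerase III was 573 to 619 at 6 h, against 568 to 750 at 0 h, which overlap. Gene models here hold coding sequence only, so lengths leave out untranslated parts.

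Factors that work with the enzymes were read from lists drawn up with earlier results of these data known. Among 9 polymerase I factors, RRN3, whose product joins the stalk to start transcription of ribosomal DNA, stood at 14.8, 20.3 and 35.9 CPM at 0 h, 56.4, 71.0 and 73.0 after 1 h, 52.8, 58.5 and 63.8 after 3 h, and 55.1, 65.0 and 72.1 after 6 h. All later libraries lay above all those at 0 h, among which replicate 3 was the highest. The change was 1.52 ± 0.26 at 1 h, 1.32 ± 0.26 at 3 h and 1.45 ± 0.26 at 6 h (edgeR adjusted p = 0.000668, 0.00165 and 0.000566). RRN7, a core factor subunit, rose at 3 and 6 h (0.65 ± 0.16 and 0.69 ± 0.16). HMO1, a DNA-binding protein of ribosomal DNA, had 259, 262 and 251 CPM at 0 h, 331, 340.5 and 337 after 1 h, 219, 218 and 210.5 after 3 h, and 187, 193 and 178 after 6 h. It rose at 1 h and fell below 0 h at 3 and 6 h, with 0.39 ± 0.05, -0.25 ± 0.05 and -0.47 ± 0.05 (edgeR adjusted p = 1.6e-05, 0.000596 and 1.53e-06), and its 3 h value was 0.08 with total counts. UAF30 and RRN5, of the upstream activating factor, fell at 1 h (-0.45 ± 0.13 and -0.39 ± 0.14). With total counts neither was a call, and RRN5 lost the call without 0 h replicate 1 or any of the 1 h libraries (adjusted p 0.0647 to 0.161). In all 2 of the 9 rose and 2 fell at 6 h against 0 h, beside 33% and 28.9% of all features. With total counts 4 rose and 1 fell. Among 10 polymerase III factors, the TFIIIC subunit genes TFC4 and TFC6 rose, TFC4 at 1, 3 and 6 h (0.54 ± 0.09, 0.38 ± 0.09 and 0.34 ± 0.09) and TFC6 likewise (0.35 ± 0.08, 0.40 ± 0.08 and 0.41 ± 0.08), and so did PZF1 at 1 and 3 h (0.56 ± 0.13 and 0.44 ± 0.13), the second lost without 0 h replicate 1 or 2 (adjusted p = 0.0515 and 0.062). TFC8, another TFIIIC subunit, fell at 6 h (-0.36 ± 0.10). MAF1, the repressor of polymerase III, chosen for its role after its values were seen, fell at 1 h (-0.30 ± 0.06). With total counts the values of TFC8 at 6 h and MAF1 at 1 h were -0.06 and -0.09, neither of them a call. At 6 h 3 of 10 rose and 1 fell, beside 33% and 28.9% of all features, while with total counts 8 rose and 0 fell.

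Of 18 general factors of polymerase II, 3 rose and 2 fell at 6 h, beside 33% and 28.9% of all features. With total counts 12 rose and 0 fell. SSL2, the translocase of TFIIH, stood at 67.4, 70.7 and 82.7 CPM at 0 h, 133, 125 and 125 after 1 h, 115, 116 and 110.3 after 3 h, and 119, 121 and 119 after 6 h, with every later library above every 0 h library, and rose, with 0.80 ± 0.07, 0.63 ± 0.07 and 0.70 ± 0.07 (edgeR adjusted p = 6.05e-07, 5.87e-06 and 1.07e-06). TFA1, of TFIIE, rose at 1, 3 and 6 h (0.33 ± 0.07, 0.29 ± 0.07 and 0.29 ± 0.07). TFB3, of TFIIH, rose at 6 h (0.37 ± 0.09). TFG2, of TFIIF, fell at 1 and 3 h (-0.51 ± 0.09 and -0.26 ± 0.09), the second lost without 0 h replicate 1 or 2 or 3 h replicate 1 or 2 (adjusted p 0.0758 to 0.119) and at 0.07 with total counts. KIN28, the kinase of TFIIH, fell at 1 h (-0.36 ± 0.10), and with total counts this was no call. Of 12 elongation factors, 7 fell and 0 rose at 6 h, beside 28.9% and 33% of all features, with a median of -0.23. DESeq2 and an unadjusted p under 0.05 gave the same counts. With total counts 2 fell and 3 rose. SPT6, a histone chaperone that travels with the enzyme, had 504, 525 and 543 CPM at 0 h, 411, 408 and 392 after 1 h, 359, 349 and 357 after 3 h, and 353, 332 and 347 after 6 h, and fell at each time (-0.38 ± 0.05, -0.56 ± 0.05 and -0.61 ± 0.05). SPT16, a subunit of the histone chaperone FACT, fell at 3 and 6 h (-0.31 ± 0.04 and -0.49 ± 0.04), the first of them at 0.03 with total counts. RTF1, of the Paf1 complex, fell at 3 and 6 h (-0.53 ± 0.10 and -0.46 ± 0.10) and SPN1, a partner of SPT6, at 1 h (-0.30 ± 0.05), and with total counts none of these was a call. SPT15, the TATA-binding protein used by all 3 enzymes, fell at each time (-0.23 ± 0.05, -0.27 ± 0.05 and -0.36 ± 0.05), while with total counts its values were -0.02, 0.06 and -0.06, none of them a call. Of 8 genes for assembly and nuclear import of the polymerases, 6 rose and 0 fell at 3 h, beside 26.3% and 24.5% of all features. These counts were 5 and 0 by DESeq2, 6 and 0 at an unadjusted p under 0.05, and 7 and 0 with total counts. At 1 h 3 of the 8 rose and 0 fell, beside 24.5% and 23.4%. At 6 h 3 rose and 1 fell, beside 33% and 28.9%. With total counts 6 rose and 0 fell at 1 h, and likewise at 6 h. RBA50 stood at 0.49 ± 0.07, BUD27 at 0.48 ± 0.10 and RTP1 at 0.35 ± 0.10. RTR1, a phosphatase of the tail of RPO21, rose at 1 and 6 h (0.29 ± 0.08 and 0.52 ± 0.08), the first lost without 0 h replicate 3 (adjusted p = 0.0627). The counts of each list are to be read against the percentages of all features given for the same comparisons. Among transcripts made by polymerase III itself, SCR1, the RNA component of the particle for signal recognition, fell at 1 h (-0.38 ± 0.13, lost without 0 h replicate 3 or 1 h replicate 1 or 2, adjusted p 0.0701 to 0.109, and with total counts, -0.16, adjusted p = 0.206) and rose at 6 h against 3 h (0.53 ± 0.13), and RPR1, the RNA of RNase P, fell at 3 h (-0.64 ± 0.14) and rose at 6 h against 3 h (0.43 ± 0.14, lost without 0 h replicate 3, 3 h replicate 2 or 3 or 6 h replicate 1, adjusted p 0.0529 to 0.106). The small nucleolar RNA snR52 rose at 1 h (0.93 ± 0.29), a call lost without 0 h replicate 2 or 3 or 1 h replicate 1 or 2 (adjusted p 0.051 to 0.0696).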

How the data were processed

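Stranded total RNA libraries, depleted of ribosomal RNA, were counted per gene by the authors, and the deposited table holds whole-number counts for 6216 features in 12 libraries, not normalised. Per the submitters' processing notes, STAR 2.5.2b, featureCounts 1.5.1 and the R64 genome were used; neither strand setting nor annotation is given there, so the overlap of RPA14 with its neighbour could not be resolved. Library totals were 8508894 to 11008709 counts. The labels do not say that libraries came from separate cultures, so p-values measure a spread that may be technical.

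The test was edgeR's (version 4.0.16, under R 4.3.3: TMM scaling, filterByExpr, robust quasi-likelihood test, all 12 libraries in 1 fit, 5 comparisons, Benjamini-Hochberg adjustment over 5615 features, threshold 0.05). Alternatives were other scalings, filters, DESeq2 1.42.0, each library left out, and a replicate block. On simulated counts for 5615 genes, changes of 1.5-fold were recovered in 77.6%, 83.6% and 79.1% of cases at 1, 3 and 6 h against 0 h. Of all calls in those counts, 7.33%, 3.17% and 3.65% were false. Changes smaller than 1.5-fold, as many called here are, were not covered. Given in every library were the 2 largest subunits of each nuclear enzyme, RPO41, and in each class the 2 members with the largest increase and the 2 with the largest decrease past the threshold against 0 h; of each related list, up to 3 genes by size of change were to be named per comparison, which is done here for those with 0 h and, between successive times, for SCR1 and RPR1. The members and lists were chosen with earlier results of these data known. Promoters came from RefSeq R64, the build the authors used. A blastn 2.17.0 search at 95% identity over 50% of the length found 0 members with a near-identical copy.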

Additional observations from a re-analysis of the deposited data

How the results depend on the processing

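Scaling was the choice that moved most. With total counts in place of TMM, 7 members were higher and 3 lower at 1 h, 24 higher and 0 lower at 3 h, and 10 higher and 9 lower at 6 h, all against 0 h. Under that scaling 41 of 160 member log2 fold changes took the other sign, 21 of them called under neither scaling. The 20 called under one of the scalings were RPB5 at 1 h (0.0700) and the following. At 3 h there were RPB5 (0.28), RPB7 (0.23), RPB3 (0.11), RPA34 (0.29), RPB4 (0.0879), RPB2 (0.22), RET1 (0.32), RPB8 (0.13), RPA43 (0.26), RPA135 (0.22), RPC40 (0.31) and RPO26 (0.0533). At 6 h there were RPO21 (0.0301), RPC11 (0.28), RPA14 (0.28), RPB7 (0.0017), RPA49 (0.11), RPB2 (0.28) and RET1 (0.28). The cause was not tested. Fitting only the 2 times compared, which leaves fewer libraries to estimate the spread, gave 1, 6 and 0 members higher at 1, 3 and 6 h against 0 h, 3 lower at 3 h against 1 h and 1 higher at 6 h against 3 h. A filter of 10 CPM gave 2 higher at 6 h against 0 h. With each library left out in turn, members higher against 0 h ranged over 1 to 2 for 1 h, 3 to 12 for 3 h, and 1 to 3 for 6 h, those lower at 3 h against 1 h 0 to 1, those higher at 6 h against 3 h 0 to 1 and those lower at 6 h against 3 h 14 to 26. In those fits polymerase I minus polymerase II ran from 0.0109 to 0.240 at 3 h and from -0.376 to -0.0851 at 6 h, polymerase III minus polymerase II at 6 h from -0.00574 to 0.388, and polymerase III minus polymerase I at 6 h from 0.371 to 0.480. Libraries that share a replicate letter deviated together with correlations of -0.0885 to 0.485 (median 0.345, beside -0.113 for different letters), and 9 of 12 libraries correlated best with their own letter. Since not every pair was over 0.1 the letters were not taken as pairs, though the labels do not say what the letters mark. A replicate block, added after the data were seen, gave 3 members higher at 6 h against 0 h, 1 lower at 3 h against 1 h and 2 higher at 6 h against 3 h. With the block 13 of 160 member results became calls and 0 calls were lost. Searching only the 250 bases before the start codon left the PAC core in 16 of 32 members and in 17.0% of all promoters. The lowest count of a member in a library was 152 (RPC31), where counting alone gives an error of 8.11%. This is close to the common biological coefficient of variation of 8.68%, and 0 of 32 members had a counting error above it. What depth does to the calls was not tested.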

Other observations

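Outside the list, 229 tested genes hold the longer PAC form GCGATGAG, on either strand, in the same promoter window. Of these, 13 were higher and 128 lower at 6 h against 3 h by edgeR (5.7% and 55.9%), with a median log2 fold change of -0.32, beside 21% higher and 21.7% lower of all tested features. At 3 h against 1 h, 76 were higher and 16 lower (33.2% and 7.0%), beside 16.9% and 17.6% of all. At 6 h against 0 h, 40 were higher and 101 lower (17.5% and 44.1%), beside 33% and 28.9% of all. The genes with the core alone or within the longer form, 1082 besides the members, had 161 higher and 356 lower at 6 h against 3 h (14.9% and 32.9%). Set against 0 h, their 6 h values were higher in 317 and lower in 345 (29.3% and 31.9%), shares near those of all features. The pattern was not particular to PAC. Of 803 tested genes outside the list with the RRPE core, 69 were higher and 358 lower at 6 h against 3 h (8.6% and 44.6%). For these, 3 h against 1 h gave 189 higher and 112 lower (23.5% and 13.9%), and 6 h against 0 h gave 160 and 355 (19.9% and 44.2%). All these counts are with TMM scaling and were not taken with total counts, and the sets may share genes. The motifs were chosen for their known link with polymerase genes and with results of these data known. The counts therefore describe the genes and were not tested as a set.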
